A study of Ovis aries with 10 samples.

Results

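Circular RNAs of sheep host genes known by a LOC number formed the subject of these results. A circular RNA (circRNA) is a transcript in which a downstream splice donor has been joined back to an upstream splice acceptor, and sequencing detects it by junction reads that cross this back-splice. Members were the circRNAs whose first listed host symbol began with LOC and digits, listed in at least 1 of the 10 libraries, with the host LOC105605336 left out. The rule gave 362 circRNAs of 199 hosts, of 8721 circRNAs of 3435 hosts in all, and the comparison set was the 8107 circRNAs of 3235 hosts with a gene symbol. A further 4 circRNAs belonged to LOC105605336 and 248 had no host.

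The libraries came from longissimus dorsi, the long muscle of the back, of female small-tailed Han sheep, and served a study of how estrogen acts on muscle growth. The ovariectomized group, labelled OR-STH, had 5 libraries and its surgery removes the main source of estrogen. The sham-operated group, labelled STH, had 5 libraries, and breed, sex and muscle were common to both groups. Ages were not among the labels. The labels name the muscle and also primary myoblasts, the cultured precursors of muscle fibers, so tissue and culture could not be separated from the labels alone. They do not say that each library was a separate animal, so every p-value measures the spread between these libraries. In bulk RNA, fewer cells of a type and less RNA per cell cannot be told apart.

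A LOC symbol is a placeholder made from a gene identifier, given by genome annotators when no curated or orthologous name has been attached. It says nothing of function: such loci include coding genes that lack a name in the species, long noncoding RNAs and repeated RNA genes. Back-splicing mostly joins annotated exons of coding genes, and a circRNA is called intronic where its region falls within an intron of the host annotation.

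The libraries held 39045 to 67061 junction reads in the OR-STH group and 35731 to 49887 in the STH group, and LOC hosts supplied 1129 to 1683 of them per OR-STH library and 793 to 1353 per STH library. Of 13 genes typical of mature muscle fibers, 12 hosted circRNAs, with 2.56% to 4.63% of the junction reads in OR-STH libraries and 3.07% to 4.96% in STH libraries. The exception was MYH7, the slow myosin heavy chain. Of 5 myoblast genes only DES, the muscle intermediate filament desmin, hosted a circRNA, with 3 reads, and the defining PAX7, MYF5, MYOD1 and MYOG were at 0, as were all 4 proliferation genes. Endothelial genes supplied 175 reads, 0.0234% to 0.0410% in OR-STH libraries and 0.0261% to 0.0673% in STH libraries, with KDR at 0. No matrix, adipocyte, immune or blood marker hosted a circRNA. A gene that hosts no circRNA may still be expressed.

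"Unnamed" described the hosts only in part. In a newer sheep gene table (assembly ARS-UI_Ramb_v3.0), 72 of the 199 hosts now carried a gene symbol and were protein coding, with 156 circRNAs and 5188 junction reads. Another 73 were protein coding and still had a LOC number, with 112 circRNAs and 4257 reads. Long noncoding RNA hosts numbered 31, with 52 circRNAs and 1351 reads, and 21 hosts that the table did not list had 38 circRNAs and 1078 reads. The other 2 hosts were a ribosomal RNA and a small nucleolar RNA gene, with 4 circRNAs and 91 reads. All 8104 circRNAs of named hosts found in that table belonged to protein-coding genes. Symbols below are those of the newer table, and positions are the files' own, counted from 1, on a genome build not given in the sources used here. By these positions, 311 of 324 LOC circRNAs with a host in that table (96.0%) lay inside the host's span there. For named hosts it was 8090 of 8104 (99.8%).

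LOC circRNAs made up 4.15% of all circRNAs but 2.69% of junction reads, 11965 against 423305 for named hosts. Both sets had a median of 10.0 reads per circRNA over the 10 libraries, while the mean was 33.1 reads for LOC hosts and 52.2 for named hosts. The highest LOC circRNA had 541 reads, against 28331 for a circRNA of SENP6, a SUMO protease, and without that one the named mean was 48.7. LOC hosts had 1.82 circRNAs each, and 127 of them (63.8%) had 1, against 2.51 circRNAs each and 1515 (46.8%) with 1 among named hosts. The richest LOC hosts gave 10 circRNAs, the richest named host 125. Reads summed per host had a median of 15 for LOC and 27 for named hosts.

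Listing was alike at the low end: 136 LOC circRNAs (37.6%) and 3012 named-host circRNAs (37.2%) appeared in 1 library. At the other end, 25 LOC circRNAs (6.91%) and 768 of named hosts (9.47%) appeared in all 10. These shares are over circRNAs, which are not replicates, and carry no test.

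**Figure D1:**
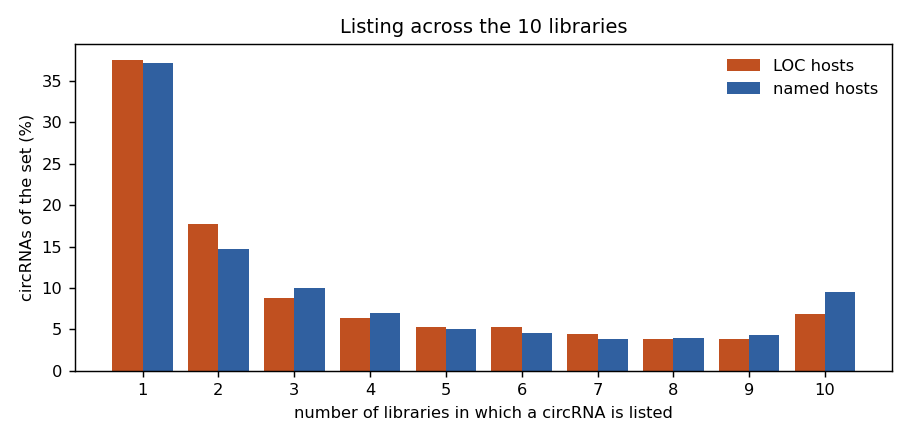
For LOC and named hosts, the percentage of circRNAs (vertical axis) is plotted against the number of libraries that list them (horizontal axis). The columns stand close at 1 library (37.6% and 37.2%) and apart at 10 (6.91% and 9.47%).

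In kind, 37 LOC circRNAs (10.2%) were intronic, against 509 (6.28%) of named hosts. Intronic circRNAs held 12.4% of LOC reads and 3.43% of named-host reads, and the LOC share rested largely on few hosts. Of the 1478 intronic LOC reads, novel_circ_0003707 of LOC106990930 held 450, novel_circ_0014990 of LOC101123244 held 337 and the circRNAs of LOC121820182 held 344. LOC circRNAs had a mean of 2.21 sequence blocks, the exon-like pieces of the spliced circle, against 2.32 for named hosts, and a median of 2 in both sets. A single block was found in 104 LOC circRNAs (28.7%) and 1842 of named hosts (22.7%). The median spliced length was 279 bases for LOC and 292 for named hosts, and the median span on the genome 5240 bases for LOC and 7716 for named hosts. Where a host had several circRNAs, 192 of 235 in LOC hosts (81.7%) shared a start or an end with another, against 4526 of 6592 (68.7%) in named hosts.

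Within each library, listed circRNAs of LOC hosts were less often exonic than those of named hosts. The exonic percentage averaged 90.6% ± 1.74 for LOC hosts and 95.4% ± 0.373 for named hosts (SD over 10 libraries). The difference, -4.76 points, was negative in 10 of 10 libraries, and a two-sided exact sign-flip permutation test over the libraries gave p = 0.00195, the smallest it can give, and 0.00977 adjusted over 5 measures. The libraries share circRNAs, so the test speaks of how steadily the difference appears from library to library. Hosts that now have a symbol went the other way, 2.19 points above named hosts (adjusted exact permutation p = 0.0195), and the hosts without one differed by -10.3 points (adjusted p = 0.00488). This split by symbol was chosen after seeing the data, and over all circRNAs pooled the intronic percentages were close, 6.41% for LOC hosts with a symbol now and 6.28% for named hosts.

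The non-junction count that accompanies each circRNA is taken here as the other reads assigned to its place, which can include those of linear transcripts. Its exact definition was not given in the sources used here. The median non-junction reads per junction read averaged 16.8 ± 3.44 for LOC hosts and 20.1 ± 3.73 for named hosts (SD over 10 libraries), lower for LOC hosts in 7 libraries and higher in 3. The difference of -3.34 gave an adjusted exact permutation p of 0.0488, and leaving out any one of OR-STH 2, OR-STH 3 or the 5 STH libraries in turn raised it to between 0.0781 and 0.0977. It separated by host class: hosts with a symbol now were 7.21 above named hosts (adjusted p = 0.00977) and the rest differed by -10.2 (adjusted p = 0.00488), again a split chosen after seeing the data. Over the whole set, 25 LOC circRNAs (6.91%) had more junction than non-junction reads, against 166 (2.05%) of named hosts. Hosts with a symbol now supplied 3 of the 25 (1.92% of their circRNAs), a percentage close to that of named hosts. Another 7 (6.25%) came from coding hosts still under a LOC number and 7 (13.5%) from long noncoding hosts. The remaining 8 (21.1%) came from hosts that the newer gene table did not list. Among circRNAs with no host it was 47 (19.0%). These counts carry no test.

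The remaining 3 measures gave no call within libraries. Median blocks averaged 2.55 for LOC hosts and 2.5 for named hosts, and median reads per listed circRNA 5.5 for LOC and 5.6 for named hosts (adjusted exact permutation p = 1.0 for each). The percentage listed in that library alone averaged 10.6 for LOC hosts and 9.96 for named hosts (adjusted exact permutation p = 0.850). With means in place of medians, the difference of LOC minus named hosts was -4.72 reads per listed circRNA (adjusted exact permutation p = 0.00488) and -0.0566 blocks (adjusted p = 0.0293). Median reads were equal in 9 libraries. Means weigh the most abundant circRNAs, which for named hosts include the SENP6 circRNA of 28331 reads, and the libraries share circRNAs.

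By class, circRNAs of long noncoding hosts had a median of 2.75 to 6.25 non-junction reads per junction read over the libraries, below the named-host median of 11.9 to 26.7 in 10 of 10. Coding hosts with a symbol now had 19.1 to 33.4 and coding hosts still under a LOC number 10.0 to 23.7. Hosts not in the table ranged widely, 1.6 to 26.5. Intronic circRNAs made up 5.0% to 26.7% of those listed from long noncoding hosts and 18.8% to 40.0% from hosts not in the table. For hosts with a symbol now they made up 0% to 6.45%. The first 2 classes had few circRNAs per library, 11 to 23 from long noncoding hosts and 12 to 21 from hosts not in the table. Over all libraries, 6 of the 10 intronic circRNAs of hosts not in the table came from LOC121820182.

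**Figure D2:**
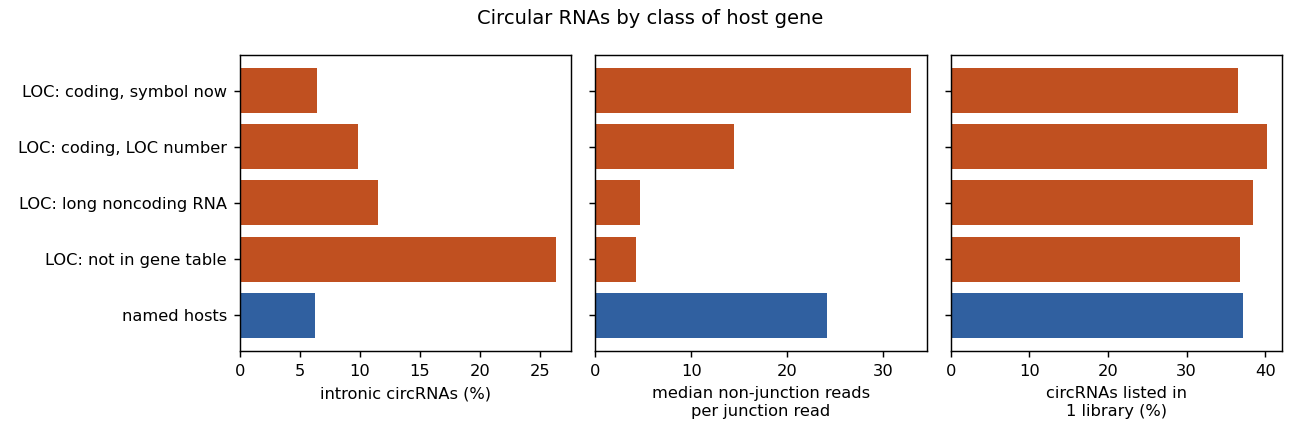
For circRNAs of LOC hosts in 4 classes and of named hosts, the panels plot the percentage that were intronic, the median non-junction reads per junction read and the percentage listed in 1 library, over all 10 libraries. Hosts not in the table stood highest in the first panel (26.3%, 10 of 38 circRNAs, 6 of them from LOC121820182, against 6.28% for named hosts). They stood lowest in the second, just below long noncoding hosts (4.24 and 4.63 against 24.1 for named hosts). The third ran from 36.5% to 40.2%.

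Reads were concentrated: 12 circRNAs held 4374 of the 11965 LOC reads (36.6%), and 12 hosts held 5721 (47.8%).

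**Figure D3:**
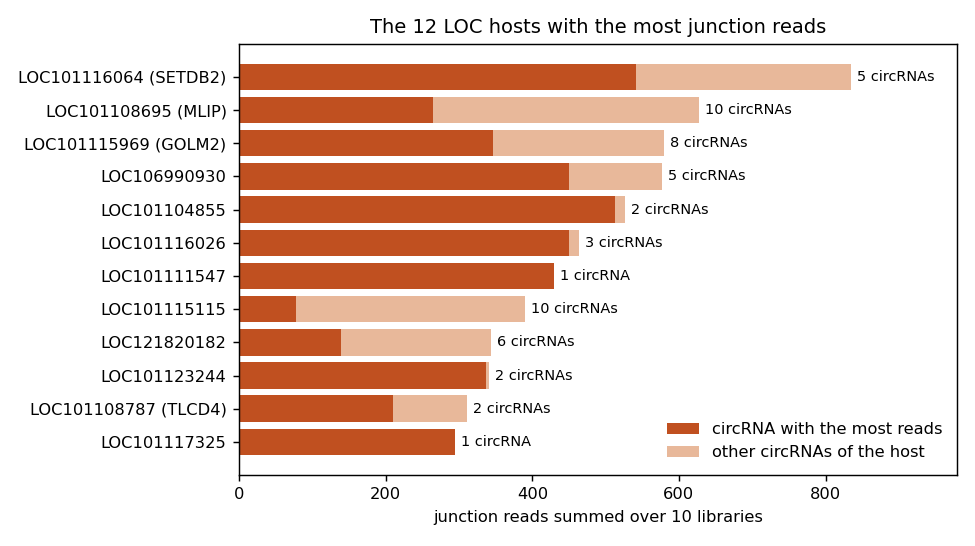
Junction reads summed over 10 libraries (horizontal axis) for the 12 LOC hosts with the most reads, split into the circRNA with the most reads (dark) and the host's other circRNAs (light). SETDB2, with 835 reads, and MLIP, with 628, lead, and the leading circRNA held from 78 of 390 reads (LOC101115115) to all reads of the host.

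The host with the most reads, LOC101116064, is SETDB2 in the newer table, a member of the SET family of histone H3 lysine 9 methyltransferases. It had 835 reads in 5 circRNAs, nearly all in a pair that differ by 3 bases at the start. novel_circ_0010252, on chromosome 10 from 19390073 to 19393185 (plus strand, exonic, 3 blocks, 399 bases spliced), had 40, 62, 68, 54 and 77 reads in OR-STH libraries and 30, 21, 62, 59 and 68 in STH libraries. The groups overlapped, at 54.1 ± 12.8 normalized reads in OR-STH and 51.6 ± 18.8 in STH libraries (SD, n = 5 each), with a log2 fold change of OR-STH over STH of 0.10 ± 0.29 (SE; limma adjusted p = 0.941). With 0.555 non-junction reads per junction read, this was 1 of the 25 LOC circRNAs that exceeded their non-junction count. It was also 1 of the 3 among them from hosts with a symbol now.

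Its partner novel_circ_0010253 starts at 19390076 and had 18, 27, 30, 28 and 47 reads in OR-STH libraries and 23, 16, 24, 36 and 32 in STH libraries, a log2 fold change of -0.12 ± 0.27. Of the reads of both forms, the shorter took 32.8% ± 3.23 in OR-STH libraries and 36.9% ± 6.86 in STH libraries (SD, n = 5 each; two-sided exact permutation p = 0.254). Its share lay between 27.9% and 43.4% in every library, so every library listed both. Whether the 2 entries are distinct circles was not tested. SETDB2 overlaps RCBTB1 in the newer table, so reads of the 2 genes could be mixed in the counts.

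Such near-identical forms recurred. In LOC hosts, 9 pairs of circRNAs had starts and ends within 20 bases of each other. Some of these, such as the pairs of LOC101116849 and LOC121817960, had few reads and were never listed in the same library. The pair of LOC114112704 had the same start and end and was not listed together either. LOC101109345 gave forms with 85 and 64 reads whose ends differ by 4 bases, listed together in 8 libraries. LOC101123284, which is RAB3IP, an activator of Rab GTPases, gave forms with 64 and 28 reads that start 9 bases apart.

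The host with the second most reads, LOC101108695, is MLIP, a lamin-interacting protein enriched in skeletal and cardiac muscle. Its 10 circRNAs held 59, 25, 41, 121 and 75 reads in OR-STH libraries and 36, 54, 121, 55 and 41 in STH libraries. One high library stood in each group, OR-STH 4 and STH 3, and the log2 fold change was -0.28 ± 0.35 (limma adjusted p = 0.888). The largest of them, novel_circ_0015018 on chromosome 20 from 6431647 to 6471463 (minus strand), joined 6 blocks, the highest number among members. It had 26, 11, 22, 29 and 14 reads in OR-STH libraries and 10, 35, 77, 22 and 19 in STH libraries, and its log2 fold change of -0.79 ± 0.50 did not pass (limma adjusted p = 0.836).

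Some other hosts now named are muscle genes, and 4 of them, singled out after their values were seen, are given here. NRAP, an anchoring protein of the myofibril, had 29 reads in 5 circRNAs, and SLMAP, a membrane protein of the sarcolemma and the sarcoplasmic reticulum, 40 reads in 2. XIRP2, an actin-binding repeat protein of striated muscle, and TRDN, the triadin of the calcium release complex, had 3 reads each, in 1 library.

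LOC101115969 is GOLM2, a Golgi membrane protein, with 580 reads in 8 circRNAs. Its leading novel_circ_0007860 had 28, 36, 35, 40 and 39 reads in OR-STH libraries and 16, 28, 19, 43 and 63 in STH libraries, and the OR-STH values lay within the range of the STH values. The host's log2 fold change was 0.11 ± 0.25. LOC101108787, TLCD4, a TLC domain membrane protein, had 311 reads in 2 circRNAs (0.05 ± 0.34). LOC101115331, GPR89A, an anion channel that regulates Golgi pH, had all its 251 reads in novel_circ_0001949, with 20, 23, 16, 32 and 54 in OR-STH libraries and 26, 21, 29, 16 and 14 in STH libraries (0.12 ± 0.32).

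Of the 73 coding hosts still under a LOC number, 51 (69.9%) had a single circRNA, against 61.1% of LOC hosts with a symbol now. Where such a host had several, the leading circRNA held nearly all reads in some and fewer in others, such as 57.0% in LOC101109345. LOC101104855, between ACAT1 and ATM, had 527 reads, 97.3% of them in novel_circ_0012618, and LOC101116026, between PHF19 and PSMD5, had 464, 97.0% of them in novel_circ_0003495. novel_circ_0012618 had 80, 70, 64, 39 and 56 reads in OR-STH libraries and 40, 36, 24, 56 and 48 in STH libraries (0.27 ± 0.32; limma adjusted p = 0.904). novel_circ_0003495 had 46, 44, 25, 61 and 56 reads in OR-STH libraries and 48, 38, 15, 87 and 30 in STH libraries (-0.05 ± 0.38). In both, the groups overlapped.

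LOC101115115, between SEMA3C and GNAT3, was built otherwise: its 390 reads were spread over 10 circRNAs and the leading one held 78 of them. Summed, it had 44, 15, 41, 43 and 38 reads in OR-STH libraries and 50, 26, 30, 44 and 59 in STH libraries. The normalized means were 33.0 ± 13.1 in OR-STH and 46.3 ± 15.5 in STH libraries (SD, n = 5 each), and the log2 fold change of -0.56 ± 0.32 did not pass (limma adjusted p = 0.762). LOC101112864, which is PDE4DIP, the Golgi and centrosome scaffold myomegalin, likewise had 10 circRNAs, with 192 reads (0.22 ± 0.42), and LOC101116849, MTPAP, the mitochondrial poly(A) polymerase, 7 circRNAs with 45 reads, too few to test.

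The largest long noncoding host, LOC106990930, lies between SLC25A37, a mitochondrial iron importer, and ENTPD4, a Golgi nucleotidase. It had 577 reads in 5 circRNAs, 78.0% of them in the intronic novel_circ_0003707, on chromosome 2 from 42266751 to 42269775 (plus strand). That circRNA had 46, 74, 34, 34 and 35 reads in OR-STH libraries and 48, 38, 68, 40 and 33 in STH libraries. OR-STH 2 and STH 3 were the high libraries, and the log2 fold change was -0.38 ± 0.34 (limma adjusted p = 0.847). Summed over the host, the value was -0.47 ± 0.27 (adjusted p = 0.762). Next among the long noncoding hosts were LOC105607506, between LPL and TEX10, with 161 reads, and LOC106991099, between KLF14 and MKLN1, with 114 (log2 fold change -0.38 ± 0.62).

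Of hosts not in the newer table, LOC121820182 on chromosome 8, between TRAF3IP2 and REV3L, had 6 circRNAs, all intronic, with 344 reads. Its sums were 46, 37, 22, 11 and 64 in OR-STH libraries and 39, 34, 32, 31 and 28 in STH libraries. Normalized, the OR-STH libraries ran from 9.54 to 47.5 and the STH libraries from 28.3 to 50.8, so that no OR-STH library lay above the STH range (log2 fold change -0.36 ± 0.37; limma adjusted p = 0.862). LOC105608014, between KCNRG and DLEU7, had 123 reads (0.61 ± 0.88). LOC121820153 had 104 reads in 4 circRNAs and overlaps TRDN, so that its reads and those of triadin could be mixed. Overlap with a named coding gene was found for 11 of 31 long noncoding hosts and 5 of 21 hosts not in the table.

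The ribosomal RNA host LOC114112704, on an unplaced scaffold, had 3 single-block circRNAs, among them the pair with the same start and end. Together the 3 had 14, 0, 0, 17 and 0 reads in OR-STH libraries and 11, 4, 10, 11 and 5 in STH libraries, where 0 means not listed. The accompanying non-junction counts were 336771 to 691797 in each library that listed one, and each such library listed 1 of the 3 forms. The small nucleolar RNA host LOC114114280, which overlaps NCAPD2, a condensin subunit, had 19 reads in 1 circRNA.

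**Figure D4:**
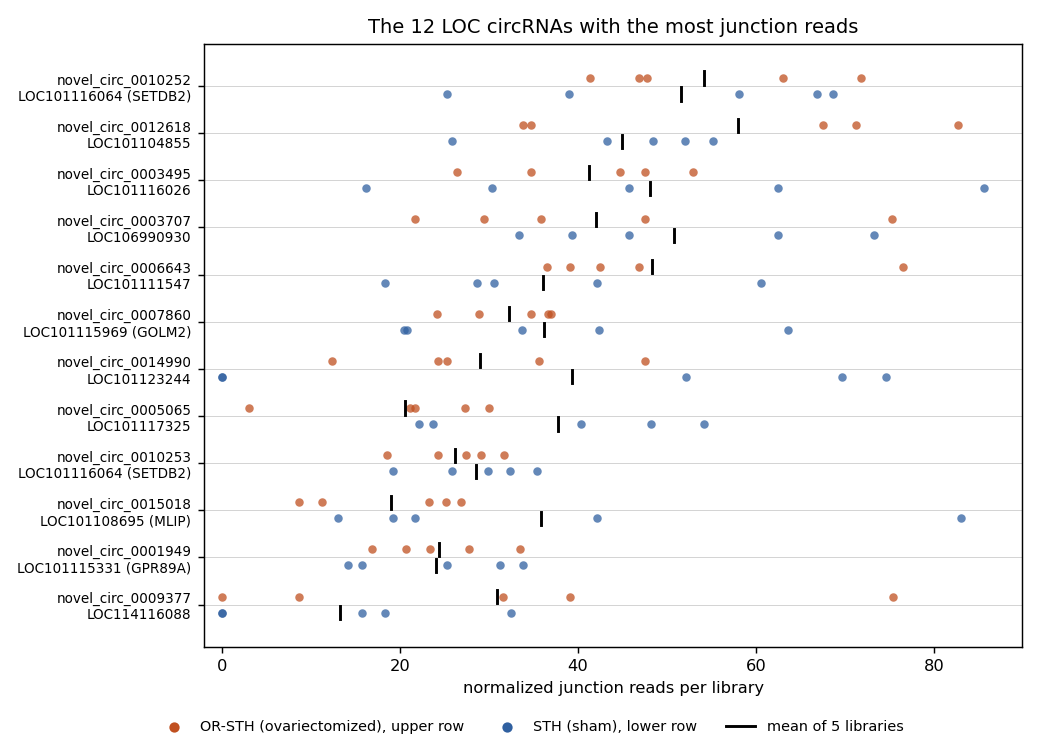
Normalized junction reads per library (horizontal axis) for the 12 LOC circRNAs with the most reads (vertical axis), OR-STH points above STH points, with bars at the group means. The groups overlap for each of the 12.

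The question for the group comparison was whether ovariectomy altered LOC circRNAs, and as a set their shares of the reads overlapped between the groups. They held 3.03%, 2.82%, 2.89%, 2.84% and 2.51% of the junction reads in OR-STH libraries and 2.14%, 2.86%, 2.04%, 3.26% and 2.67% in STH libraries. The OR-STH values lay within the STH range, and the means were 2.82% ± 0.190 for OR-STH and 2.59% ± 0.507 for STH (SD, n = 5 each; two-sided exact permutation p = 0.389). These shares are of all junction reads, which include the 28331 of the SENP6 circRNA. That circRNA had a log2 fold change of -1.36 ± 4.52 (SE). The LOC share of a library therefore also depends on how many SENP6 reads the library held. The libraries listed 125, 127, 127, 137 and 141 LOC circRNAs in the OR-STH group and 100, 118, 126, 135 and 125 in the STH group (131.4 ± 7.13 in OR-STH against 120.8 ± 13.1 in STH, SD; exact permutation p = 0.127).

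As a percentage of all circRNAs listed in the library, LOC circRNAs made up 4.25%, 3.90%, 4.28%, 4.19% and 3.98% in OR-STH libraries and 3.91%, 3.54%, 3.85%, 3.88% and 3.78% in STH libraries. The highest STH library just exceeded the lowest OR-STH library, and the means were 4.12% ± 0.170 for OR-STH and 3.79% ± 0.149 for STH (SD, n = 5 each). This percentage was not a planned comparison, unlike the share of reads and the number listed. The difference of 0.331 points gave a two-sided exact permutation p of 0.0159, or 0.0476 adjusted over these 3 measures of the set. It was 0.219 points with p = 0.103 by the exact permutation test when a listing needed at least 5 reads. All circRNAs listed numbered 2939 to 3543 in OR-STH libraries and 2559 to 3483 in STH libraries.

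By host class, coding LOC hosts held 2.24% ± 0.179 of the reads in OR-STH libraries and 2.02% ± 0.375 in STH libraries (SD, n = 5 each; exact permutation p = 0.286, adjusted over 4 classes 0.730). Long noncoding hosts held 0.295% ± 0.0573 in OR-STH libraries and 0.322% ± 0.135 in STH libraries (adjusted exact permutation p = 0.984), a difference that changed sign without STH 4, to 0.0327 points. Hosts not in the table held 0.257% ± 0.0375 in OR-STH libraries and 0.227% ± 0.0514 in STH libraries (adjusted exact permutation p = 0.730).

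**Figure D5:**
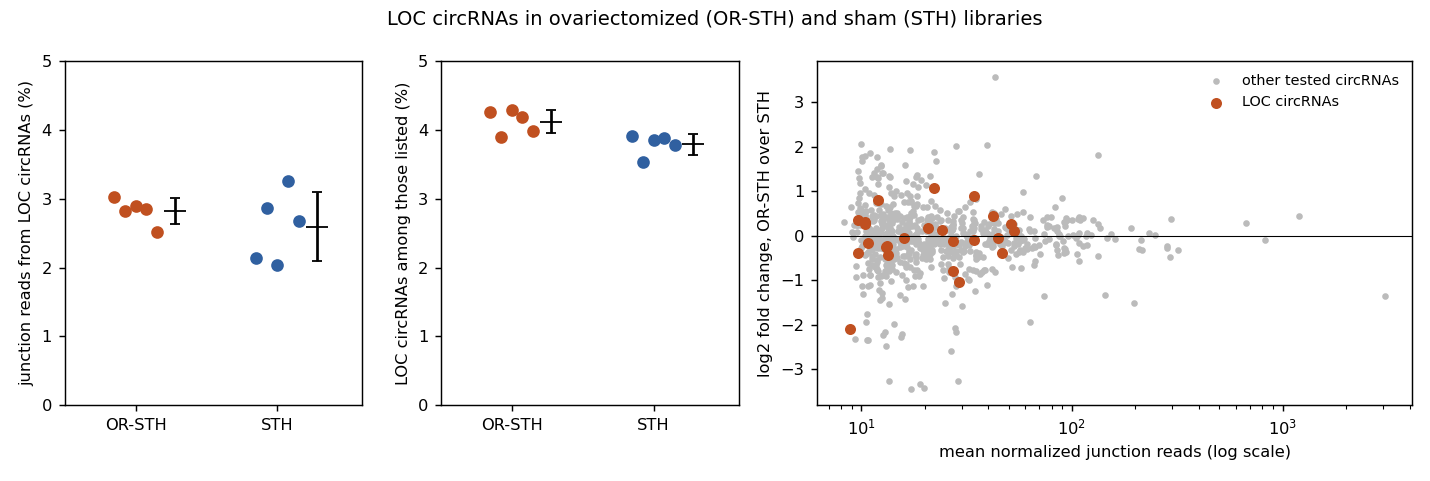
The first 2 panels plot, per library, the percentage of junction reads from LOC hosts and LOC circRNAs as a percentage of those listed, with bars for the mean and SD of 5 libraries; the third plots the log2 fold change of OR-STH over STH for each tested circRNA against its mean normalized reads (log scale). OR-STH libraries lay within the STH range in the first panel and mostly above it in the second, and the 24 LOC circRNAs of the third ran from -2.09 to 1.07.

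For single circRNAs, 24 of the 362 members passed the filter on low reads (6.63%, against 8.61% of named-host circRNAs), and they held 49.2% of LOC reads. A member passed by being high in enough libraries of either group, so these do not stand for all members. None passed an adjusted p of 0.05 in limma, where 0.0% of the 738 circRNAs tested did, and the smallest adjusted p of a member was 0.781. Without adjustment, 0 members had a p under 0.05, against 5.69% of all tested (1.22% higher and 4.47% lower in OR-STH libraries). In 0 members did the groups fail to overlap, against 1.36% of all tested. Log2 fold changes were positive in 11, where 47.6% were over all tested, and negative in 13, with a median of -0.05 against -0.04 over all tested, and a median SE of 0.50 against 0.42.

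The members with the smallest p in each direction did not pass. On the lower side, novel_circ_0005065 of LOC101117325, between ADA2 and ATP6V1E1 on chromosome 3 (214859743 to 214865088, plus strand), had 29, 3, 20, 25 and 44 reads in OR-STH libraries and 17, 45, 22, 49 and 40 in STH libraries. OR-STH 2 was the low library, and the log2 fold change was -1.04 ± 0.50 (limma adjusted p = 0.781), between -1.26 and -0.49 over the alternatives run. novel_circ_0004112 of LOC101109345, which overlaps INPP4A, a phosphoinositide phosphatase, had 11, 13, 4, 15 and 0 reads in OR-STH libraries and 7, 10, 6, 6 and 13 in STH libraries. Its value of -2.09 ± 1.11 (adjusted p = 0.781) turned to 0.22 without OR-STH 5, the library that did not list it.

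On the higher side, novel_circ_0006643, a circRNA of 266 bases and the only one of LOC101111547, between MICOS13 and SAFB2, had 74, 46, 37, 49 and 59 reads in OR-STH libraries and 22, 35, 17, 31 and 60 in STH libraries. On the normalized scale STH 2 and STH 5 lay within the OR-STH range, and the log2 fold change was 0.44 ± 0.32 (limma adjusted p = 0.847). novel_circ_0011567 of LOC101108935, which is IVNS1ABP, a kelch protein that binds actin, had 13, 18, 5, 20 and 30 reads in OR-STH libraries and 3, 12, 12, 3 and 13 in STH libraries (0.81 ± 0.70; adjusted p = 0.847).

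Several abundant members were absent from whole libraries. The intronic novel_circ_0014990 of LOC101123244, between NQO2 and SERPINB1, had 46, 35, 24, 28 and 20 reads in OR-STH libraries and 0, 62, 0, 53 and 69 in STH libraries. All 5 OR-STH libraries listed it, at 12.4 to 47.5 normalized reads, while the STH group was split between 3 high libraries and 2 that did not list it. Its normalized mean was 29.0 ± 13.2 in OR-STH libraries and 39.3 ± 36.8 in STH libraries (SD, n = 5 each), whereas the log2 fold change was 0.88 ± 1.23 (limma adjusted p = 0.928), of opposite sign. novel_circ_0009377, a single-block circRNA of LOC114116088, had 73, 31, 37, 0 and 14 reads in OR-STH libraries and 0, 27, 17, 16 and 0 in STH libraries (1.07 ± 3.74; adjusted p = 0.941).

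With reads summed per host, 25 of the 199 LOC hosts were tested, 15 with positive values, where 46.5% were over all hosts, and 10 with negative values, and none passed an adjusted p of 0.05 in limma, against 0.0% of the 751 hosts tested. The median log2 fold change was 0.05 against -0.05 over all hosts. At an unadjusted p under 0.05 there was 1, LOC101117325 (-1.03 ± 0.46; limma adjusted p = 0.762), against 5.73% of all hosts tested in either direction and 4.53% lower in OR-STH libraries, and the groups failed to overlap in 0 hosts, against 0.932%. By the smallest p, the other hosts on the lower side were LOC101115115 and LOC106990930, given above, and LOC101109345 at -2.16 ± 1.20. On the higher side they were LOC101111547 (0.44 ± 0.31), LOC101108935 (0.81 ± 0.71), LOC101123244 (1.03 ± 1.21) and LOC105607506 (0.70 ± 0.96).

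For 3 of these hosts the sign of the fitted value ran against the group means, and each had at least 1 library at 0. LOC101109345 averaged 15.8 ± 9.71 normalized reads in OR-STH libraries and 14.8 ± 5.41 in STH libraries (SD, n = 5 each), and its value turned to 0.41 without OR-STH 5. LOC101123244 averaged 29.5 ± 12.5 in OR-STH libraries and 39.3 ± 36.8 in STH libraries. LOC105607506 had 15, 7, 10, 36 and 17 reads in OR-STH libraries and 0, 13, 2, 51 and 10 in STH libraries, with normalized reads of 7.12 to 31.2 in OR-STH libraries and 0 to 50.2 in STH libraries and a mean just lower in the OR-STH group.

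Below the filter, 6 LOC circRNAs (1.66%) were listed in at least 4 libraries of one group and at most 1 of the other, 3 for each group, against 1.69% of all 8721. Of those listed mostly in OR-STH libraries, novel_circ_0004288 of LOC101109426, which is STRBP, a double-stranded RNA binding protein, had 13, 3, 11, 0 and 18 reads in OR-STH libraries and 0, 0, 0, 9 and 0 in STH libraries. novel_circ_0012134 of LOC101116076, between FAM83C and GDF5, had 0, 8, 7, 5 and 6 reads in OR-STH libraries and 0, 0, 0, 5 and 0 in STH libraries. In both, STH 4 was the STH library that listed it. Another, novel_circ_0010263 of LOC105608014, had at most 6 reads in a library.

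Of those listed mostly in STH libraries, novel_circ_0014643 of LOC101106751, between VGLL4 and TRH, had 0, 0, 7, 0 and 0 reads in OR-STH libraries and 7, 8, 5, 3 and 4 in STH libraries. novel_circ_0006902 of LOC101105495, between TAF7 and DIAPH1, had 0, 0, 6, 0 and 0 reads in OR-STH libraries and 3, 11, 5, 0 and 6 in STH libraries. In both, OR-STH 3 was the OR-STH library that listed it. The files list no count under 2, so a circRNA at 0 may have had a read.

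The last of the 6, novel_circ_0013674 of the long noncoding LOC105602881, between BRAP and CIT on chromosome 17, was the 1 member (0.276%) to which the authors' deposited table gave a p under 0.05, as it did to 1.35% of all circRNAs. It had 0, 0, 0, 0 and 0 reads in OR-STH libraries and 2, 0, 2, 15 and 5 in STH libraries, so most of its 24 reads came from STH 4. The authors' deposited table gave means of 0 in OR-STH and 4.77 in STH, a log2 of STH over OR-STH of 4.88, p = 0.00669 and an adjusted p of 0.966.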

How the data were processed

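The authors deposited one table of circRNAs with whole junction and non-junction read counts packed in lists per library, and one with mean signal per group (reads divided by size factors, per the file headers), log2 fold changes of STH over OR-STH, and p-values with adjusted p-values. Per the submitters' processing notes HISAT2 was used. Its version, the circRNA caller, the genome build and strand use in counting were not given in the sources used here. A further 10 sample names in the lists match none of the series' labels and were left aside. Of 11297 circRNAs in the table, 8721 had an entry in the 10 libraries; the smallest listed count was 2, and an unlisted library was set to 0.

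Members and lists were chosen with earlier results of these data known. Junction reads were scaled by trimmed means of log ratios and fitted with voom in limma 3.58.1 (R 4.3.3), OR-STH minus STH, robust empirical Bayes, adjusted by Benjamini-Hochberg over all tested circRNAs or hosts. Tested were those reaching 10 reads, scaled to the median library, in 5 libraries, with a total of at least 15. The plan put limma in place of a count model because the counts are packed in lists. They were unpacked to whole counts before the fit, so a count model could also have been run. The fit was tested on simulated data. Normalized reads are junction reads scaled to a common library size. Single values per library were compared by two-sided exact permutation over 252 relabellings (smallest p 0.00794), and LOC with named hosts by exact sign-flip over 10 libraries.

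Named were the 12 circRNAs and 12 hosts with the most reads, the 5 hosts with the most circRNAs, the 3 with the most reads per host class, the 4 tested with the smallest p in each direction, those with a p under 0.05 in the authors' table, and up to 5 listed mainly in one group. Host classes, symbols and neighbours came from the ARS-UI_Ramb_v3.0 gene table; 38 member circRNAs had hosts it does not list. Alternatives changed scaling, filter, model, pseudocount, block, denominator, members and libraries. Depth was 35731 to 67061 junction reads per library; reads carry no molecular identifiers.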

Additional observations from a re-analysis of the deposited data

Results flagged for a closer look

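In groups of 5 libraries, 12 of 96 sets of values had 1 library far from the other 4 by Dixon's test at 0.71. Independent normal values would give about 1 in 20 by chance. These sets share reads and many hold low counts, so the 12 cannot be read as an excess over that rate. In STH 4, long noncoding LOC hosts held 0.561% of junction reads, against 0.223% to 0.282% in the other STH libraries. In STH 3, hosts not in the gene table held 0.138%, against 0.237% to 0.271%. novel_circ_0006643, the only circRNA of LOC101111547, had 76.5 normalized reads in OR-STH 1, for the circRNA and for its host, against 36.6 to 46.8 in the other OR-STH libraries.

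The MLIP host LOC101108695 had 130.4 normalized reads in STH 3, against 41.4 to 65.0 in the other STH libraries. LOC101109345 had 24.2 in STH 5, against 10.8 to 14.3. The MTPAP host LOC101116849 had 0 in OR-STH 2, against 4.22 to 5.17 in the other OR-STH libraries.

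The other sets had one library with reads and 4 at 0. For the 4 circRNAs among them this pattern was fixed by the rule that named them, listing in at most 1 library of one group, so they cannot be read against the chance rate. In the OR-STH group, OR-STH 3 had 7.39 normalized reads of novel_circ_0014643 and 6.33 of novel_circ_0006902. In the STH group, STH 4 had 8.86 of novel_circ_0004288 and 4.92 of novel_circ_0012134, and STH 5 had 4.04 of the small nucleolar RNA host LOC114114280.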

How the results depend on the processing

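No LOC circRNA or host passed an adjusted p of 0.05 in limma under any alternative run. Over the whole table, 0 circRNAs passed, against 4 when 5 libraries with 2 reads sufficed, 14 with no filter and 3 with the replicate block; 0 hosts passed, against 1, 7 and 1 in the same order, 1 at an adjusted p under 0.10, and 0 to 1 with one library left out. Libraries of the same replicate number correlated at -0.11 to 0.185 between the groups, against means of -0.0499 to 0.0298 with other numbers. The same-number value was the higher in replicates 1 to 4 and the lower in 5, so weak pairing was neither shown nor excluded. With the block, log2 fold changes reversed to -1.30 for novel_circ_0014990, 0.11 for novel_circ_0004112, -1.17 for LOC101123244, -0.39 for LOC105607506 and 0.52 for LOC101109345. Leaving out one library moved novel_circ_0004112 between -2.18 and 0.22, and LOC101109345 between -2.71 and 0.41. Library totals alone moved the median of all circRNAs from -0.04 to 0.14 and of LOC circRNAs to 0.20. Of the values per library (OR-STH minus STH), the number of LOC circRNAs listed differed by 10.6, and by 5.40 to 14.2 with one library left out (p = 0.0317 without STH 4, exact permutation test). As a percentage of all listed, a measure added to the planned ones, 0.331 points passed and 0.219 with at least 5 reads did not. Under the replicate block 0.331 gave 0.0625, the smallest p that 5 pairs allow in the exact permutation test. The long noncoding share reversed to 0.142 points with LOC105605336, and ranged from -0.0519 to 0.0327 with one library left out. The share of the ribosomal and small nucleolar RNA hosts reversed to 2.52e-05 points with exonic circRNAs, and ranged from -0.00743 to 0.00524. The block changed no other call.

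Of LOC minus named hosts, the exonic percentage reversed to 2.19 for hosts with a symbol now. Blocks reversed to -0.2 with at least 5 reads, -0.0566 with means and -0.55 in exonic circRNAs, and ranged from -0.0556 to 0.167 with one library left out. Reads per listed circRNA reversed to 0.15 with LOC105605336 and were -4.72 with means. Non-junction reads per junction read lost the call at -1.86 with at least 5 reads and -2.12 in exonic circRNAs, ranged from -3.96 to -2.74 with one library left out, and reversed to 319.3 with means, which the ribosomal RNA host's counts enter, and to 7.21 for hosts with a symbol now. The percentage listed in one library ranged from -0.00423 to 1.11. The cause of these changes was not tested. Few reads per circRNA limit the fit: 338 members were not tested.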

Other observations

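The locus between KCNRG and DLEU7 on chromosome 10 held 2 LOC hosts, chosen after their values were seen. LOC105608014 had 123 reads in 2 circRNAs. The long noncoding LOC105608012 had 44 reads in 1 circRNA, with 13, 0, 6, 2 and 6 in OR-STH libraries and 7, 0, 0, 10 and 0 in STH libraries. The groups overlapped.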
